A study of Mus musculus with 6 samples.

Results

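*Nuak2* encodes a serine/threonine kinase of the AMPK-related family, and its mRNA level was described here in liver macrophages together with 9 relatives: *Nuak1*, *Sik1*, *Sik2*, *Sik3*, *Mark2*, *Mark3*, the upstream kinase gene *Stk11*, and the AMPK catalytic subunit genes *Prkaa1* and *Prkaa2*. These 10 genes, of 49315 in the count tables, were found by gene symbol. *Nuak2* was picked on its lower level in the mutant mice of these same libraries, so its genotype difference is given as a description with no test, and the other 9 genes were listed around it as relatives. Liver F4/80-positive cells, the fraction that holds the resident macrophages known as Kupffer cells, were isolated with magnetic beads from 6 mice, and RNA was sequenced with 1 library per mouse, 3 per genotype.

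Both genotypes carried floxed *Lpcat3* alleles on a C57BL/6N background. The 3 WT mice were Lpcat3 fl/fl LysM+/+ littermates without Cre, and the 3 Lpcat3 KOMac mice were Lpcat3 fl/fl LysM Cre/+, in which Cre is made in myeloid cells from the lysozyme M locus. Mice were 8 to 12 weeks old when the diets began, and all 6 had 16 weeks of a high-fat diet (HFD) with 60% fat. *Lpcat3* encodes the acyltransferase that puts polyunsaturated fatty acids into phospholipids. Its level was 85.0, 66.2 and 61.2 scaled counts per 1000000 assigned reads (CPM) in WT and 19.5, 33.3 and 19.4 CPM in Lpcat3 KOMac. Reads of the gene thus remained in every mutant library. Within each genotype, the highest value was in the library with the most hepatocyte transcripts, WT mouse 1 and Lpcat3 KOMac mouse 2. Which cells the remaining reads came from was not tested. A control with Cre and without floxed alleles was not analysed here, so the effect of Cre and that of *Lpcat3* deletion cannot be told apart.

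Libraries held 44954224 to 71392812 assigned reads. The 6 Kupffer cell markers summed to 18864 to 34015 CPM per library, whereas markers of lymphocytes, neutrophils and cholangiocytes summed to at most 6.69, 5.61 and 1.14 CPM. Of these low sums, those of neutrophil (2.08 to 3.13 against 4.24 to 5.61 CPM) and cholangiocyte markers (0.319 to 0.678 against 0.895 to 1.14 CPM) did not overlap between WT and Lpcat3 KOMac, and their part in the results below was not tested. Endothelial markers summed to 879 to 1234 CPM, stellate cell markers to 57.1 to 205 CPM and monocyte markers to 74.0 to 142 CPM. Hepatocyte transcripts varied most, from 2170 to 22672 CPM, and WT mouse 1 and Lpcat3 KOMac mouse 2 held the highest sums, so results were also computed without these 2 libraries. All levels, also those above, are CPM scaled by trimmed mean of M-values (TMM). In such bulk samples fewer cells of a type and less RNA per cell cannot be told apart.

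AMPK and its relatives share a catalytic domain, and most are switched on when LKB1, the product of *Stk11*, phosphorylates a threonine in a stretch called the activation loop. AMPK senses a fall in cellular energy and restrains lipid synthesis, the SIK kinases hold the CRTC coactivators of CREB and the class IIa histone deacetylases in the cytoplasm, the MARK kinases act on microtubule-associated proteins, and the NUAK kinases act on myosin phosphatase and on cell adhesion. In macrophages, AMPK and the SIK kinases are known for their part in tuning cytokine production.

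The activation loop shows how close the relatives are. In the 9 kinases downstream of LKB1 it covered 27 codons, 81 bases, counted from the Asp-Phe-Gly codons to the Pro-Glu codons, and 14 of the 27 codons encoded the same residue in all 9. *Nuak1* encoded the same residue as *Nuak2* at 25 codons (92.6%), and the lowest count was 15 (55.6%), in *Sik2*. *Prkaa1* and *Prkaa2* each shared 18 codons with *Nuak2* at the residue level. The coding strands of 6 loops are printed 5′ to 3′ from GENCODE M21 transcripts on GRCm38, 1 for each branch plus the second member of the NUAK and AMPK pairs, with the codon of the threonine that LKB1 phosphorylates in capitals.
Nuak2: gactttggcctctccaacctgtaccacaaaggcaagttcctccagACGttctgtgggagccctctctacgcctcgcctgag
Nuak1: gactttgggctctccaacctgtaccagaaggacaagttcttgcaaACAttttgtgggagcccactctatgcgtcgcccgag
Sik1: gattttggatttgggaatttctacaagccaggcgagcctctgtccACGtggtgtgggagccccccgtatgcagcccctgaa
Mark3: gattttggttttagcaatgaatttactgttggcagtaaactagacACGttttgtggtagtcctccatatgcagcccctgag
Prkaa1: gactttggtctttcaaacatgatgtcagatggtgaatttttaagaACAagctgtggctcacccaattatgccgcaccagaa
Prkaa2: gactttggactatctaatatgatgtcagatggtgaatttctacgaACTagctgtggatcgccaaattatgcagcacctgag
The *Nuak2* loop lay in exon 5 at chr1:132329964-132330044 on the plus strand with its threonine at codon 212. That of *Nuak1* also lay in exon 5, at chr10:84380780-84380860 on the minus strand, with the threonine again at codon 212. The *Mark3* loop was within exon 8 (chr12:111627121-111627201, plus strand, codon 211). Those of *Sik1* (chr17:31850986-31851235, minus strand, codon 182), *Prkaa1* (chr15:5168706-5170002, plus strand, codon 183) and *Prkaa2* (chr4:105049348-105051208, minus strand, codon 172) were each split by an intron, which is left out of the printed run.

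*Nuak2* (ENSMUSG00000009772; GRCm38 chr1:132316126-132333488, plus strand) stood at 52.9, 52.4 and 49.2 CPM in the 3 WT mice and at 35.9, 30.5 and 33.7 CPM in the 3 Lpcat3 KOMac mice. Every mutant library lay below every WT library, and the highest mutant value was well short of the lowest WT value. The mean level was 51.5 ± 1.98 CPM in WT and 33.4 ± 2.74 CPM in Lpcat3 KOMac (SD, n = 3 each), so the mutant mean was 64.8% of the WT mean. The difference on the log2 scale was -0.63 in the edgeR model. Its standard error of 0.09 was derived from the F statistic of the fit, and is not read as a test of a gene picked for this difference. These values rested on 1581 to 3437 reads per library. Leaving out 1 mouse at a time, the log2 difference ran from -0.66 to -0.55, and it was -0.54 without the 2 libraries highest in hepatocyte transcripts.

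*Nuak2* varied little within a genotype. Its highest library was 1.07 times its lowest in WT and 1.18 times in Lpcat3 KOMac, and its within-genotype SD of 0.09 on the log2 scale was smaller than that of most genes, with 11.4% of the genes tested below it and a median of 0.27. Genes with few reads are part of that comparison. Picking a gene for a genotype difference also favours a small spread, so nothing further is read from this rank. Kupffer cell markers were measured beside the *Nuak2* level. They summed to 24938 to 34015 CPM in WT and to 18864 to 27224 CPM in Lpcat3 KOMac, and 1 of the 6, *Clec4f*, a lectin gene of resident Kupffer cells, did not overlap between genotypes, at 10038 ± 1859 against 7380 ± 941 CPM (SD, n = 3 each), which is 73.5% of WT. Over all genes tested, 5.2% had all mutant mice below all WT mice. All 6 markers had log2 differences below 0: -0.18 for *Adgre1*, -0.44 for *Clec4f*, -0.24 for *Vsig4*, -0.46 for *Timd4*, -0.22 for *Cd5l* and -0.27 for *Marco*. No Kupffer marker was called by edgeR, and the part of Kupffer cell content in the *Nuak2* level was not tested.

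**Figure D1:**
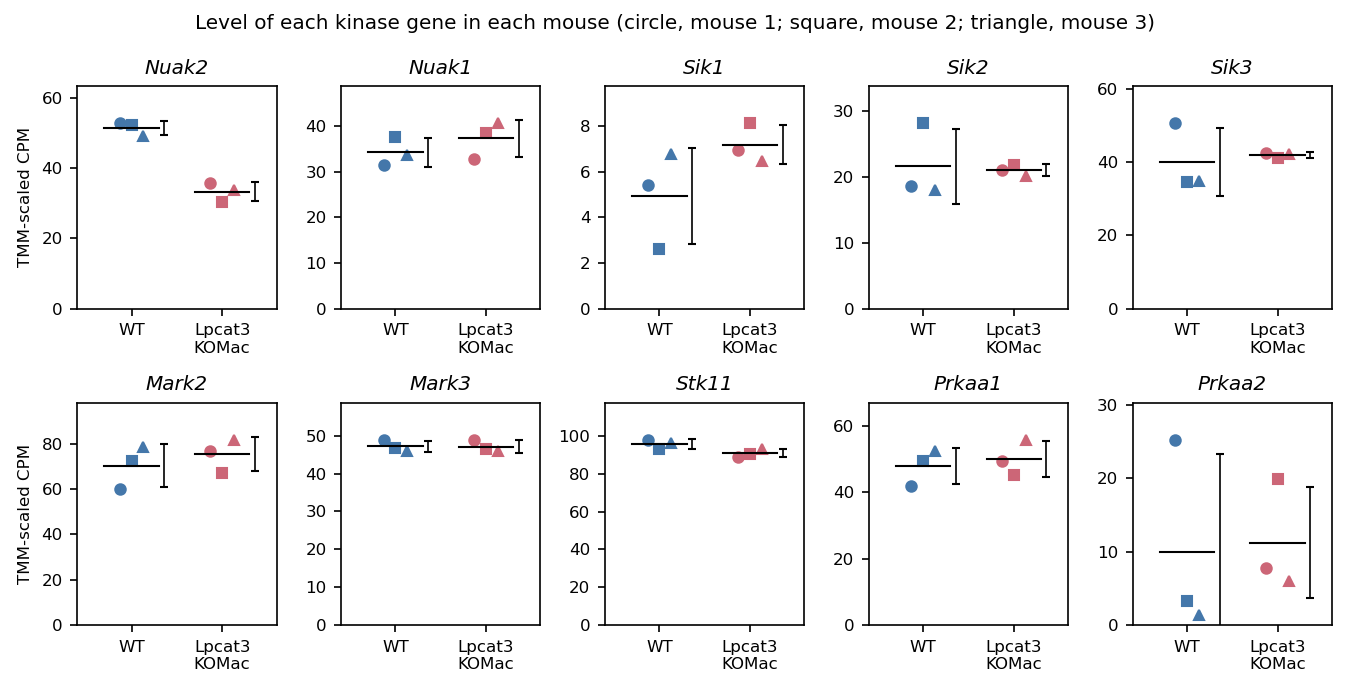
Level of each of the 10 kinase genes in TMM-scaled CPM (vertical axes from 0, each with its own range) in 3 WT and 3 Lpcat3 KOMac mice, 1 symbol per mouse, with the mean as a horizontal line and SD as the bar beside it (drawn down to 0 at most). *Nuak2* is the panel in which the genotypes are apart, 49.2 to 52.9 against 30.5 to 35.9 CPM, and *Prkaa2* spreads from 1.36 to 25.3 CPM.

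The groups overlapped in the closest relative of *Nuak2* by activation loop. *Nuak1* (ENSMUSG00000020032; chr10:84370905-84440597, minus strand) stood at 31.4, 37.6 and 33.8 CPM in WT and 32.8, 38.6 and 40.7 CPM in Lpcat3 KOMac. The log2 difference of *Nuak1* was 0.13 (standard error 0.12). Per kilobase of exon, the *Nuak2* level was 2.42, 2.00 and 2.09 times that of *Nuak1* in WT and 1.57, 1.13 and 1.19 times in Lpcat3 KOMac. *Nuak2* was thus the higher of the pair in all 6 mice, by a ratio of 2.17 ± 0.222 in WT and 1.30 ± 0.239 in Lpcat3 KOMac (SD, n = 3 each), and this shift is the *Nuak2* difference seen again.

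Across the whole table, the quasi-likelihood test of edgeR, with p values adjusted by the Benjamini-Hochberg method, called none of the 16134 genes tested between genotypes (0%). An unadjusted p under 0.05 was given to 426 of them (2.64%). The targeted gene *Lpcat3*, at 34.0% of WT with a log2 difference of -1.56 (standard error 0.26), was also not called. A gene not called here is therefore not shown to be unchanged. DESeq2 called 15 genes (0.093%), limma-voom 0. All 10 kinase genes passed the low-count filter, and of the 9 other than *Nuak2* edgeR called 0. None of the other 9 had an unadjusted p under 0.05 by edgeR. In 839 genes (5.2%) all Lpcat3 KOMac mice were below all WT mice, and in 369 genes (2.29%) all were above. Of the 9 kinase genes other than *Nuak2*, 0 were among the former and 0 among the latter. *Nuak2* was among the 839, but it was picked for its lower level, so this is not a result. The median log2 difference was 0.07 over the 10 genes, 0.07 over the 9 without *Nuak2*, and -0.04 over all genes tested.

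*Stk11* (chr10:80115803-80130682, plus strand), which encodes LKB1, was among the steadiest genes measured. It was at 98.1, 93.2 and 96.2 CPM in WT and 89.1, 90.6 and 93.3 CPM in Lpcat3 KOMac, and the 2 ranges met at their edge. The means were 95.8 ± 2.49 and 91.0 ± 2.14 CPM (SD, n = 3 each), with a log2 difference of -0.07 (standard error 0.07). The within-genotype SD of *Stk11* was 0.04 on the log2 scale, and 0.638% of the genes tested had a smaller one. *Stk11* shares 232 exonic bases with *Cbarp* on the opposite strand, a gene with at most 120 reads per library against at least 4391 for *Stk11*.

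The MARK genes, whose kinases phosphorylate microtubule-associated proteins, had overlapping groups in both cases. *Mark3* (chr12:111574523-111656221, plus strand) stood at 48.8, 46.9 and 46.0 CPM in WT and 49.0, 46.4 and 46.1 CPM in Lpcat3 KOMac. Its highest library was 1.06 times its lowest, and the log2 difference was 0.00 (standard error 0.07). *Mark2* (chr19:7275396-7341860, minus strand) stood at 60.0, 72.3 and 78.6 CPM in WT and 77.0, 67.3 and 81.9 CPM in Lpcat3 KOMac, a log2 difference of 0.10 (standard error 0.13). Within each genotype *Mark2* was lowest in the library highest in hepatocyte transcripts. With the hepatocyte markers as a covariate its difference was 0.17 (standard error 0.07), and the part of hepatocyte RNA was not tested further.

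Among the SIK genes, *Sik3* was the highest per length and *Sik1* the lowest. *Sik1* (chr17:31844250-31855804, minus strand), whose transcript is itself induced by cAMP signalling, was at 5.42, 2.62 and 6.78 CPM in WT and 6.96, 8.14 and 6.46 CPM in Lpcat3 KOMac. WT mouse 2 stood low, and the groups overlapped through WT mouse 3. The means of *Sik1* were 4.94 ± 2.12 and 7.19 ± 0.863 CPM (SD, n = 3 each), and the log2 difference of 0.54 (standard error 0.36) became 0.24 without WT mouse 2 and 0.84 without WT mouse 3, on 131 to 422 reads per library. This was the largest positive difference among the 10 genes by the edgeR estimate, and its distance from 0 was under 2 standard errors.

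*Sik2* (chr9:50892801-51009073, minus strand) stood at 18.7, 28.2 and 18.0 CPM in WT and 21.1, 21.9 and 20.2 CPM in Lpcat3 KOMac. All 3 mutant values lay inside the WT range, and the log2 difference was -0.04 (standard error 0.19). *Sik2* shares 1429 exonic bases with *Ppp2r1b* on the opposite strand, which had up to 2813 reads per library, and whether strand was used in counting is not given in the sources used here, so the *Sik2* values are uncertain. *Sik3* (chr9:46012820-46224194, plus strand) stood at 50.6, 34.4 and 34.7 CPM in WT and 42.5, 41.0 and 42.2 CPM in Lpcat3 KOMac, with a log2 difference of 0.07 (standard error 0.17). WT mouse 1, the library highest in hepatocyte transcripts, held the highest *Sik3* value. The log2 difference of *Sik3* was 0.28 without that mouse and 0.02 (standard error 0.09) with the hepatocyte markers as a covariate.

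**Figure D2:**
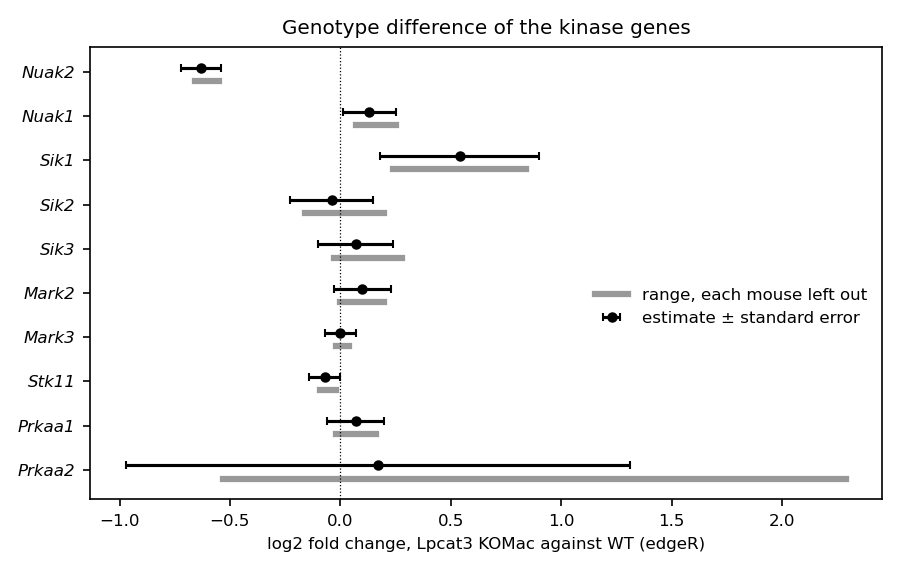
Log2 fold change of each kinase gene, Lpcat3 KOMac against WT, as the edgeR estimate with its standard error (black) and as the range with each mouse left out in turn (grey bar). *Nuak2* sits at -0.63 with a range of -0.66 to -0.55, and *Prkaa2* ranges from -0.53 to 2.29.

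The AMPK catalytic subunits differed in how far they spread across the 6 mice. *Prkaa1* (chr15:5143861-5181899, plus strand), which encodes the alpha1 subunit that macrophages mainly use, was at 41.9, 49.3 and 52.3 CPM in WT and 49.5, 45.0 and 55.8 CPM in Lpcat3 KOMac. These values overlapped, with means of 47.9 ± 5.35 and 50.1 ± 5.39 CPM (SD, n = 3 each) and a log2 difference of 0.07 (standard error 0.13). Within each genotype *Prkaa1* was lowest in the library highest in hepatocyte transcripts. With the hepatocyte markers as a covariate its difference was 0.12 (standard error 0.08). *Prkaa2* (chr4:105029874-105109890, minus strand), which encodes alpha2, was at 25.3, 3.23 and 1.36 CPM in WT and 7.78, 19.9 and 6.06 CPM in Lpcat3 KOMac. Its highest library was 18.7 times its lowest, a wider spread than that of any other kinase here, and 96.3% of all genes tested had a smaller within-genotype SD.

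The 2 libraries with the most *Prkaa2*, WT mouse 1 and Lpcat3 KOMac mouse 2, were those highest in hepatocyte markers. Summed over 7 markers, hepatocyte transcripts were at 22672, 2283 and 2170 CPM in WT and 5328, 14465 and 5121 CPM in Lpcat3 KOMac. Per 1000 CPM of these markers, *Prkaa2* was at 0.625 to 1.46 CPM in all 6 libraries. Its log2 genotype difference of 0.17 (standard error 1.14) was 2.29 without WT mouse 1, -0.53 without Lpcat3 KOMac mouse 2, 1.59 without both (a setting chosen after seeing the data) and 0.38 (standard error 0.23) with the hepatocyte markers as a covariate. Per kilobase of exon, *Prkaa2* made up 26.1, 3.69 and 1.49% of the alpha subunit transcripts in WT and 8.41, 20.5 and 5.97% in Lpcat3 KOMac, so that *Prkaa1* was the main alpha transcript in every library. The part of hepatocyte RNA in the *Prkaa2* level was not tested beyond these values.

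**Figure D3:**
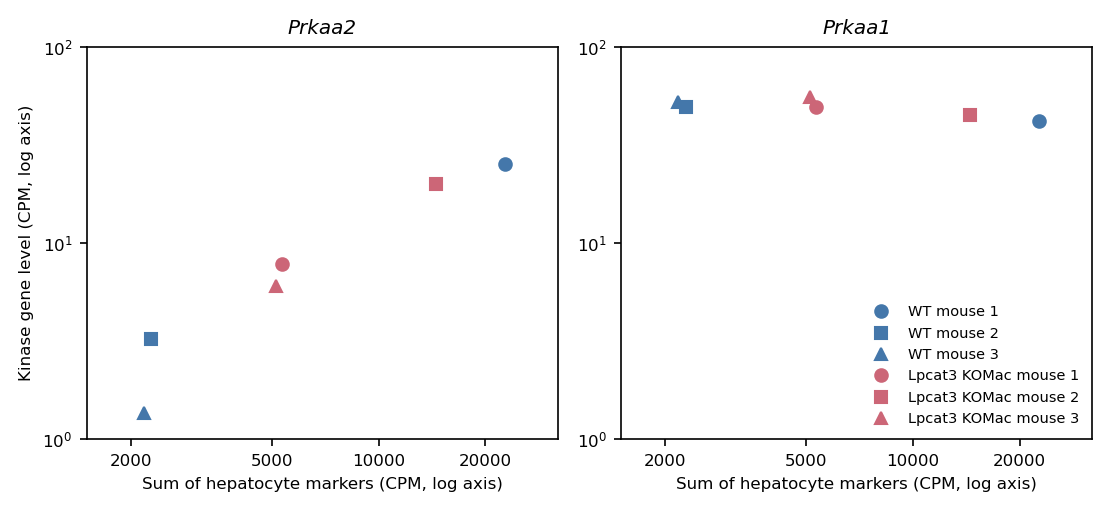
Level of *Prkaa2* (left) and *Prkaa1* (right) in CPM against the summed level of 7 hepatocyte markers in CPM, both on log axes, 1 symbol per mouse. *Prkaa2* is highest, at 25.3 and 19.9 CPM, in the 2 libraries with the most hepatocyte transcripts. *Prkaa1* lies between 41.9 and 55.8 CPM and is lowest within each genotype in those 2 libraries.

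Set side by side per kilobase of exon, the order of the mean levels over 6 mice began with *Stk11* at 20.4 CPM per kilobase, *Mark3* at 13.9, *Nuak2* at 10.8 and *Prkaa1* at 10.5. It went on with *Mark2* at 9.17, *Nuak1* at 6.37, *Sik3* at 4.39 and *Sik2* at 2.24, and ended with *Sik1* at 1.34 and *Prkaa2* at 1.33 CPM per kilobase. In 7 of the 9 neighbouring pairs the higher gene was higher in 6 of 6 mice. The exceptions were *Nuak2* over *Prkaa1*, which held in 3 of 6 mice, and *Sik1* over *Prkaa2*, which held in 4 of 6. *Nuak2* stood at 13.1 CPM per kilobase in WT, just under *Mark3*, and at 8.52 in Lpcat3 KOMac, under *Prkaa1* (10.8) and *Mark2* (9.50).

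**Figure D4:**
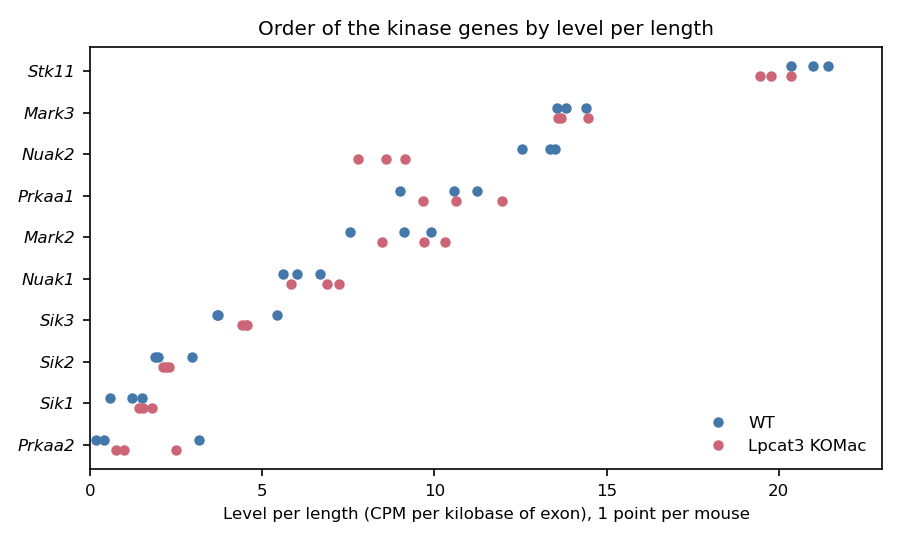
Level per length of the 10 kinase genes in CPM per kilobase of exon, 1 point per mouse, ordered by the mean over 6 mice. *Stk11* is highest at 19.4 to 21.4 and *Prkaa2* lowest on average at 0.17 to 3.18 CPM per kilobase, and the 2 colours separate for *Nuak2*.

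The other parts of the LKB1 and AMPK complexes were also detected. LKB1 works with a STRAD pseudokinase and the MO25 scaffold. Per kilobase of exon over 6 mice, *Cab39*, encoding MO25 alpha, was at 17.8 ± 0.751 CPM (SD, n = 6), near *Stk11* at 20.4 ± 0.734, and *Strada* and *Stradb* were at 4.13 ± 0.901 and 2.64 ± 0.892. Of the AMPK regulatory subunits, *Prkab1* (11.3 ± 0.693 CPM per kilobase) and *Prkag1* (17.1 ± 1.03) were well above *Prkab2* (1.74 ± 0.454) and *Prkag2* (1.25 ± 0.551), and *Prkag3*, a skeletal muscle form, was at 0.0392 ± 0.0334. The alpha1, beta1 and gamma1 transcripts were thus the most abundant of their kind in these libraries.

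No gene of either complex was called between genotypes by edgeR. The 4 LKB1 partners had log2 differences of -0.04 to 0.07, with *Cab39* at 123 ± 2.39 and 129 ± 5.86 CPM in WT and Lpcat3 KOMac (SD, n = 3 each). *Cab39l* and *Stradb* were highest in the 2 libraries rich in hepatocyte transcripts, at 45.0 and 41.2 CPM and at 30.1 and 23.8 CPM, and their log2 differences were 0.05 and -0.04. The 4 AMPK subunits tested had log2 differences of -0.05 to 0.15, and 0 of them were free of overlap between genotypes. Of all genes tested, 5.2% (mutant below) and 2.29% (mutant above) were free of overlap.

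In all, 59 further genes of the pathway were listed in 8 groups and 55 passed the low-count filter. Called by edgeR were 0 of the 55, and 2 had an unadjusted p under 0.05, *Per1* and *Hdac7*, beside 2.64% of all genes tested. DESeq2 called 1, *Per1*. The median log2 difference over the 55 genes was 0.00, beside -0.04 over all genes tested. The remaining relatives of the kinases had differences of -0.46 to 0.27, among them *Snrk* at 0.27 (standard error 0.17), *Brsk1* at -0.46 (0.64) and *Mark4* at 0.06 (0.11), and *Brsk2*, with at most 5 reads per library, was not tested. Among the other AMPK activators, *Camkk2*, the calcium-dependent AMPK kinase, averaged 35.1 ± 5.92 CPM in WT against 29.8 ± 6.03 CPM in Lpcat3 KOMac (SD, n = 3 each), and the log2 differences of *Camkk1* and *Map3k7* were 0.07 and -0.01.

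The 14 genes listed as substrates of AMPK and NUAK, with the partner gene *Ppp1cb* among them, had a median log2 difference of 0.00. The groups overlapped in every one, beside 5.2% (mutant below) and 2.29% (mutant above) of all genes tested that were free of overlap. For these and for the SIK substrates below only mRNA was measured, so the action of the kinases on the proteins is not known from these values. The NUAK substrate *Ppp1r12a*, the targeting subunit of myosin phosphatase, averaged 62.5 ± 9.16 CPM in WT against 64.8 ± 7.76 CPM in Lpcat3 KOMac (SD, n = 3 each). Its partner *Ppp1cb* had a log2 difference of 0.00 (standard error 0.10). *Srebf1*, which encodes a regulator of lipid synthesis, was at 137, 84.1 and 81.5 CPM in WT and 116, 159 and 138 CPM in Lpcat3 KOMac, a log2 difference of 0.45 (standard error 0.24) with overlapping groups. *Ulk1*, an autophagy kinase gene, had a log2 difference of -0.15. *Acacb*, encoding the mitochondrial acetyl-CoA carboxylase, was at 31.4, 2.00 and 2.95 CPM in WT and 5.87, 51.8 and 9.09 CPM in Lpcat3 KOMac. Its 2 highest libraries were again those richest in hepatocyte transcripts, and its log2 difference ran from -0.70 to 3.17 with each mouse left out.

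The 7 SIK substrates held 1 gene with all mutant values above all WT values, beside 2.29% of all genes tested. *Hdac7*, a class IIa histone deacetylase gene, was at 8.22, 5.89 and 11.7 CPM in WT and 16.0, 16.2 and 12.6 CPM in Lpcat3 KOMac. Its log2 difference was 0.80 (standard error 0.27), with an edgeR adjusted p of 1. Endothelial cells also express *Hdac7*, and endothelial markers summed to 879 to 998 CPM in WT and 970 to 1234 CPM in Lpcat3 KOMac. Of these 6 markers, 0 were free of overlap, beside 5.2% (mutant below) and 2.29% (mutant above) of all genes tested. By gene, the log2 differences were 0.02 for *Stab2*, the most abundant of them, 0.79 for *Kdr*, 0.86 for *Lyve1*, 0.49 for *Clec4g*, 0.77 for *Ptprb* and -0.24 for *Pecam1*. Their part in the *Hdac7* level was not tested. The CRTC coactivator genes *Crtc1*, *Crtc2* and *Crtc3* had log2 differences of 0.01, 0.03 and 0.12, and *Hdac5* one of -0.09.

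Targets of CREB, which the CRTC coactivators serve, had a median log2 difference of -0.26 over 10 genes tested, beside -0.04 over all genes. In 1 of the 10 all mutant values lay below all WT values, beside 5.2% of all genes tested. *Per1*, a circadian clock gene that also responds to CREB and to glucocorticoids, was at 58.1, 42.2 and 51.0 CPM in WT and 26.6, 16.0 and 20.3 CPM in Lpcat3 KOMac. The log2 difference was -1.27 (standard error 0.22), with an edgeR adjusted p of 1. *Dusp1*, a phosphatase gene of the MAP kinase pathway, was at 264, 316 and 219 CPM in WT and 235, 162 and 130 CPM in Lpcat3 KOMac, and its groups overlapped (log2 difference -0.60, standard error 0.25). *Crem* was at -0.38 (0.27), and *Fos* and the NR4A genes *Nr4a1*, *Nr4a2* and *Nr4a3* had log2 differences of -0.09, -0.28, 0.06 and 0.24. Those of *Pde4b*, *Fosl2* and *Pde4d* were -0.53, -0.24 and 0.48, so signs within the list were mixed, with most below 0.

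For target genes of YAP and TEAD, a pathway to which NUAK2 has been tied, 8 of the 9 listed genes were tested. Their median log2 difference was -0.06, with 0 genes free of overlap, beside 5.2% (mutant below) and 2.29% (mutant above) of all genes tested. *Ajuba* averaged 13.4 ± 3.05 CPM in WT against 10.2 ± 1.98 CPM in Lpcat3 KOMac (log2 difference -0.40, standard error 0.24). *Ccn1*, *Lats2* and *Crim1* had log2 differences of -0.30, -0.11 and -0.09. Those of *Ccn2*, *Amotl2* and *F3* were 0.36 (standard error 0.77), 0.15 and 0.02, so signs within the list were mixed. *Axl*, a receptor gene that Kupffer cells express strongly, was at 1763 ± 208 and 1733 ± 107 CPM (SD, n = 3 each).

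**Figure D5:**
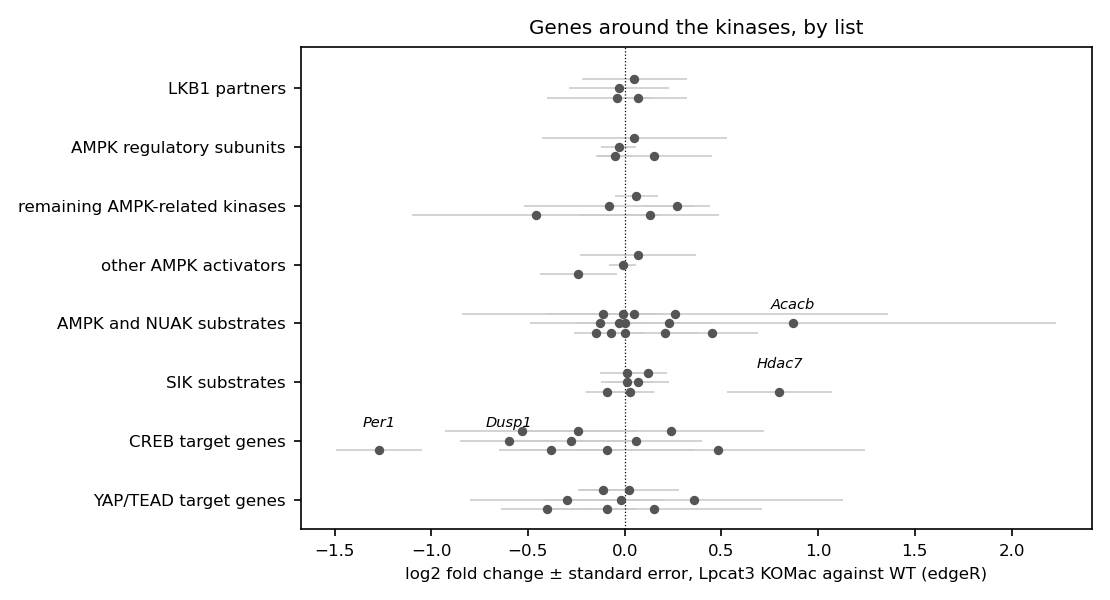
Log2 fold change of the 55 pathway genes tested, Lpcat3 KOMac against WT, by list, as the edgeR estimate (point) and its standard error (line). *Per1* lies at -1.27 and *Hdac7* at 0.80, while the wide line of *Acacb* at 0.87 reflects its spread between mice.

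The pattern of *Nuak2* across the 6 libraries was compared with that of all other genes tested by the root mean square difference of log2 CPM, each gene centred on its own mean. The 5 nearest genes were *Gm15990* (0.094), *Tent5a* (0.099), *Gm48069* (0.109), *Gm12396* (0.109) and *4732471J01Rik* (0.111). Of these, *Tent5a*, encoding a noncanonical poly(A) polymerase, was the well-covered one, at 267, 246 and 282 CPM in WT and 191, 147 and 162 CPM in Lpcat3 KOMac, while the other 4 had at most 70 reads in any library. As for *Nuak2*, all mutant values of *Tent5a* lay below all WT values, a likeness that the measure selects for. The distance from *Nuak2* was 0.29 for *Stk11*, 0.32 for *Mark3*, 0.38 to 0.41 for *Nuak1*, *Sik2*, *Sik3*, *Mark2* and *Prkaa1*, 0.78 for *Sik1* and 1.58 for *Prkaa2*, beside a median of 0.39 over all genes. Because *Nuak2* was chosen for its genotype difference, a gene without that difference is set apart from it by this measure, so nothing about the relatives is read from these distances.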

How the data were processed

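Poly(A)-selected RNA of liver F4/80-positive cells from 3 WT and 3 Lpcat3 KOMac mice was sequenced (6 libraries). For each mouse the authors deposited raw read counts per gene. The submitters' processing notes name Trimmomatic 0.36, STAR 2.5.2b, featureCounts of Subread 1.5.2 and GRCm38. The annotation release and the settings for strand and multi-mapped reads are not given in the sources used here. Totals were 44954224 to 71392812 counts.

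Counts were tested with edgeR 4.0.16 (R 4.3.3): TMM factors, the filterByExpr filter with a minimum count of 10, robust quasi-likelihood fits with genotype as the only term, and Benjamini-Hochberg adjustment over 16134 genes at 0.05. DESeq2 1.42.0 and limma 3.58.1 (voom) were alternatives, beside other scalings, other filters, a length offset, a hepatocyte covariate, the replicate number as a block, and each mouse left out. The fits were also run on simulated counts with the same spread setting for all genes. That checked the code alone, not what the fits can detect in these libraries. Standard errors of edgeR differences were the size of the log2 difference divided by the square root of its F statistic. Symbols and positions came from GENCODE M21 on GRCm38, which the files share for 44858 of 49315 genes, not for *Sik1* and *Mark3*. Exon lengths came from the files. The kinases and all gene lists were chosen with earlier results of these data known. Named were the 10 kinases, of each list the genes called and the 3 with the smallest unadjusted p, the 5 genes nearest to *Nuak2*, *Lpcat3*, and genes on which a result turned. A gene that this rule names is not reported here. Log2 CPM for likeness used a prior count of 2. With 3 mice against 3, an exact permutation test cannot go below p = 0.1, so none is given. Mice of both sexes were used in the study, and all 6 libraries held *Ddx3y*, a Y-linked gene, at 114 to 155 CPM. No 2 libraries were alike within counting noise (chi-square per degree of freedom of at least 36.95).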

Additional observations from a re-analysis of the deposited data

How the results depend on the processing

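The *Nuak2* log2 difference of -0.63 kept its sign under every alternative, from -0.66 to -0.55 with each mouse left out in turn, and was -0.53 with scaling by total counts alone, which moved the median of all genes from -0.04 to 0.06. *Nuak2* was picked for this difference in the same libraries, so its kept sign was to be foreseen and lends the difference no support. The number of genes called was 15 with DESeq2 in place of 0, and that of the kinase pathway genes 1 (*Per1*) in place of 0, and the cause was not tested. The edgeR count of 0 genes, and of 0 pathway genes, held with each mouse left out (0 to 0), while unadjusted p values under 0.05 went from 426 to 2024 without WT mouse 1 and to 171 without Lpcat3 KOMac mouse 1. Without the 2 libraries highest in hepatocyte transcripts, a setting chosen after seeing the data, 0 genes were called and 1802 had an unadjusted p under 0.05. The deviations of mice of the same number had correlations of -0.30, -0.60 and 0.36. With so few pairs, and signs that differ, these values cannot decide whether the numbers pair the mice. With the replicate block the *Nuak2* difference was -0.63 and 0 genes were called, with 138 at an unadjusted p under 0.05. Signs turned under at least 1 alternative for *Sik2*, *Sik3*, *Mark2*, *Mark3*, *Stk11*, *Prkaa1* and *Prkaa2*, not for *Nuak1* and *Sik1*. The order of levels was the same on a TPM-like scale, and 4 of the 5 genes nearest to *Nuak2* stayed with a prior count of 0.5. Nothing in the labels says whether libraries share a batch, and 3 mice per genotype limit the precision.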
